A study of Mus musculus with 3 samples.

Results

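The 3 chains of the interleukin-2 receptor and 4 genes of the SOCS family that dampen its signal were followed in single CD4+ T cells at rest, after activation and after activation without IFT20. The 7 genes, Il2ra, Il2rb, Il2rg, Cish, Socs1, Socs2 and Socs3, were taken by name from the 31053 genes counted. The rule that lists them uses no measured value, but the list was drawn up with earlier results of these data known. All 7 had at least 10 unique molecules (UMIs) in each comparison of libraries. The study profiled splenic CD4+ T cells of C57BL/6 mice, enriched for naïve cells and sorted as 7AAD-CD3+CD4+, in 3 droplet libraries of 1 sample each. The unstimulated WT library held Ift20 f/f cells kept in DPBS (0 h). The CD3/CD28 WT library held Ift20 f/f cells stimulated for 24 h with antibodies to CD3 and to CD28, each at 1 μg/mL, and the CD3/CD28 IFT20-KO library held Ift20 f/f CD4 cre cells given the same antibodies for the same time. All mice carried the floxed allele and, by the study's methods, were young males. Cre in the knockout is driven by Cd4 regulatory sequence and is active from thymic development onward. The sources do not say how many animals gave each library, and there was no unstimulated knockout library. There was also no library of cells kept for 24 h without antibodies. Stimulation and 24 h of culture therefore cannot be told apart in any comparison with the unstimulated library.

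IL-2 is made by activated T cells and binds a receptor of 3 chains. The alpha chain (Il2ra, CD25) raises affinity and carries no signalling domain, while the beta chain (Il2rb, CD122) and the common gamma chain (Il2rg, CD132) signal through the kinases JAK1 and JAK3 to the transcription factor STAT5. STAT5 in turn induces Cish and several Socs genes, whose protein products bind the receptors or the kinases and limit further signalling, and in CD4+ T cells the regulatory T cells that express Foxp3 carry CD25 without activation.

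Because STAT factors bind a palindrome written TTCNNNGAA, the start regions of the 7 genes were searched for it, as a description of letters only. RefSeq promoter windows on GRCm38.p6, from 250 bases before to 50 after each start, were at hand for 5 of the 7 genes (all but Il2rb and Socs2). The motif reads the same on both strands. It was found 2 times in Cish, 1 time in Socs3, and 0 times in the windows of Il2ra, Il2rg and Socs1. Of all 32851 windows of the same 300 bases, 8.30% held the motif and 0.457% held it 2 or more times. The Cish and Socs3 windows, which held the motif, are shown from 240 bases before to 25 after the start, with the motif in capitals. The level of Cish was higher and that of Socs3 lower in the stimulated libraries. Il2ra, with 0 matches in its window, was also higher in them. The Cish stretch is chr9:107296419-107296683 on the plus strand, with TTCCTGGAA beginning at the start itself (position 0) and TTCTTGGAA at position 11. The Socs3 stretch is chr11:117969342-117969606 on the minus strand, with TTCTTAGAA at position -154.
Cish: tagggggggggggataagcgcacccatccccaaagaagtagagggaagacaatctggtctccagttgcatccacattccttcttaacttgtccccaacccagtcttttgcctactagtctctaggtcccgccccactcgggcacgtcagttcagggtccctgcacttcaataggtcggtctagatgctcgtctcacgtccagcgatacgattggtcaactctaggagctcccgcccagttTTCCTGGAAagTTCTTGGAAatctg
Socs3: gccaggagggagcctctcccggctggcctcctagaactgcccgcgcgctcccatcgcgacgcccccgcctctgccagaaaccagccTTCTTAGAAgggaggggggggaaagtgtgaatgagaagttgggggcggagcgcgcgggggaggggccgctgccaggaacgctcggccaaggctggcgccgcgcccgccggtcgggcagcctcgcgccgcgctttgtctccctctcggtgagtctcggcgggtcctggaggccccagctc
A match in these windows is not a measured binding site.

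In GENCODE M21 on GRCm38, the receptor chains lie at chr2:11642807-11693193 (Il2ra, plus strand), chr15:78479256-78495271 (Il2rb, minus strand) and chrX:101264378-101268255 (Il2rg, minus strand). Il2rg overlaps the counted same-strand gene Gm20489, which had 0, 0 and 2 UMIs in the 3 libraries. Cish lies at chr9:107296026-107302784 on the plus strand and overlaps the counted antisense gene Gm17041, which had 0, 11 and 10 UMIs. Socs1 lies at chr16:10782240-10785536, Socs2 at chr10:95385362-95417180 and Socs3 at chr11:117966079-117970047, all on the minus strand. The Cish and Socs3 stretches shown above lie inside these GENCODE spans. Their positions thus count from the RefSeq start used, not from the outer GENCODE end. Reads that fit a member and an overlapping gene equally could have been lost from both.

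After removal of barcodes with 200 or fewer genes or with 15% or more mitochondrial UMIs, 8031, 9903 and 13920 cells remained in the unstimulated WT, CD3/CD28 WT and CD3/CD28 IFT20-KO libraries, with 37133949, 116979076 and 106435143 UMIs. The median cell had 4627, 12167 and 5014.5 UMIs. Depth was spread widely in the stimulated libraries, and cells under 3000 UMIs made up 16.6%, 21.7% and 39.6% of the 3 libraries. Kept barcodes shared between pairs of libraries numbered 114 to 197. Ift20 itself was at 64.4, 76.0 and 6.60 UMIs per 1000000 UMIs of the library (CPM), which was 11.5-fold lower in the library labelled IFT20-KO than in CD3/CD28 WT (95% interval 10.6 to 12.4). All 5 T cell markers were detected in every library, with a summed level of 2786 to 3458 CPM. The B cell markers summed to 0.846 to 3.31 CPM, the NK cell markers to 0 to 1.45 CPM, and the platelet markers Pf4 and Ppbp were at 0. Summed myeloid markers were at 76.6 to 80.6 CPM, with Lyz2 at 0 in both stimulated libraries. The CD8 T cell markers Cd8a and Cd8b1 summed to 28.7, 9.16 and 11.5 CPM in the 3 libraries. No other cell type was taken to be present in numbers that could serve to measure free RNA, so a background share of cells was not obtained for any of the 7 genes, and the part of free RNA in the shares of cells was not tested. Each group is 1 library, so no difference below carries a test, and every interval is a 95% exact interval of counting error alone.

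Against the 0 h library, the 24 h stimulated libraries had a much higher level of the inducible receptor chain and of Cish and Socs2. Socs3 was at a much lower level in them. Il2ra stood at 15.03 CPM in unstimulated WT (interval 13.8 to 16.3), 185 in CD3/CD28 WT (182 to 187) and 202 in CD3/CD28 IFT20-KO (199 to 204), which made CD3/CD28 WT 12.3-fold higher than unstimulated WT (11.3 to 13.4). Cells with an Il2ra UMI made up 3.32% of unstimulated WT (2.94 to 3.74, exact Clopper-Pearson), 72.0% of CD3/CD28 WT (71.1 to 72.9) and 65.1% of CD3/CD28 IFT20-KO (64.3 to 65.9). Il2rb, the signalling chain shared with the IL-15 receptor, stood at 24.99, 47.4 and 46.7 CPM, and CD3/CD28 WT was 1.90-fold higher than unstimulated WT (1.77 to 2.04). Its share of cells was 6.04%, 31.4% and 25.5%. Il2rg was high throughout, at 810, 746 and 798 CPM and in 92.1%, 96.3% and 93.9% of cells. The ratio of CD3/CD28 WT to unstimulated WT for Il2rg was -0.12 on the log2 scale (-0.14 to -0.10), and its sign turned to 0.34 when every cell was given equal weight.

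**Figure D1:**
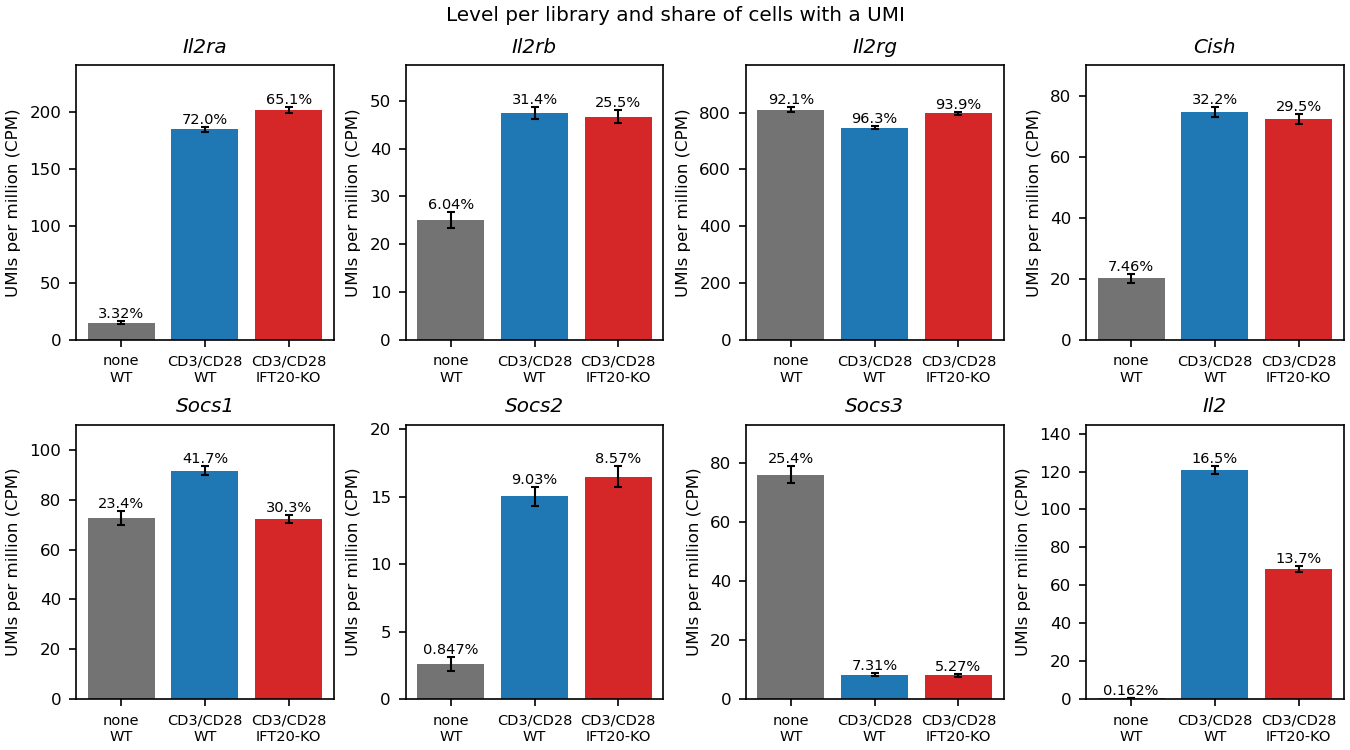
Level of the 7 genes and of Il2 in each library ("none WT" is unstimulated WT), in CPM on an axis from 0, with bars for the level, black lines for 95% exact Poisson intervals and the share of cells with a UMI written above each bar. Il2ra, Il2rb, Cish and Socs2 were lowest in unstimulated WT, Socs3 was highest there at 75.9 CPM, and Socs1 was highest in CD3/CD28 WT at 91.7 CPM.

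Among the feedback genes, Cish, which encodes the STAT5-induced CIS protein, was at 20.2 CPM in unstimulated WT, 74.9 in CD3/CD28 WT and 72.7 in CD3/CD28 IFT20-KO. CD3/CD28 WT was thus 3.71-fold above unstimulated WT (3.45 to 4.01), with 32.2% of cells positive against 7.46%. Socs2, best known for restraining growth hormone signalling, was scarce, with 95 UMIs in unstimulated WT and 1759 in CD3/CD28 WT. It stood at 2.56, 15.04 and 16.5 CPM, a 5.88-fold higher level in CD3/CD28 WT than in unstimulated WT (4.78 to 7.30), and was found in 0.847%, 9.03% and 8.57% of cells. Socs1, an inhibitor of JAK kinases, differed less, with 72.7 CPM at rest and 91.7 CPM in CD3/CD28 WT, a 1.26-fold difference (1.21 to 1.32), and 23.4%, 41.7% and 30.3% of cells in the 3 libraries held it. Socs3, which restrains receptors that use gp130, ran the other way. It stood at 75.9 CPM in unstimulated WT, 8.16 in CD3/CD28 WT and 7.95 in CD3/CD28 IFT20-KO, a 9.30-fold lower level in CD3/CD28 WT (8.64 to 10.0), and its share of cells was 25.4%, 7.31% and 5.27%.

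Counted over the set, 3 of the 7 genes were at least 2-fold higher in CD3/CD28 WT than in unstimulated WT (Il2ra, Cish and Socs2), where 19.3% of the 13297 genes with at least 10 UMIs were. Socs3 was the 1 gene at least 2-fold lower, where 23% of all genes were. The median log2 ratio of the 7 genes was 0.92, and that of all genes tested was -0.089. Shares of cells also carry the depth of the cell, so each cell was thinned to 1400 UMIs, which left out 801 unstimulated WT cells, 421 CD3/CD28 WT cells and 0 IFT20-KO cells. At that depth the share with an Il2ra UMI was 1.73%, 24.9% and 28.3% in the 3 libraries, with Cish 2.39%, 10.7% and 11.3%, and with Socs3 9.88%, 1.42% and 1.30%. Thinned shares with Il2rb were 2.60%, 7.73% and 7.45%, with Socs2 0.332%, 2.33% and 2.60%, and with Socs1 9.60%, 11.6% and 9.69%. CD3/CD28 WT kept its direction against unstimulated WT for these 6 genes. It did not for Il2rg, at 67.2%, 66.2% and 68.1%, where the intervals of unstimulated WT and CD3/CD28 WT overlapped. Il2ra, Il2rg, Cish and Socs2 were in fewer IFT20-KO than CD3/CD28 WT cells before thinning and in more after it. After thinning, the intervals of these stimulated libraries overlapped for Cish (10.0 to 11.3 in WT, 10.8 to 11.9 in IFT20-KO). They also overlapped for Socs2 (2.04 to 2.65 and 2.34 to 2.88), but not for Il2ra or Il2rg.

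Ligands, kinases and targets of the pathway gave context. Il2 itself was at 0.458 CPM in unstimulated WT and 121 CPM in CD3/CD28 WT, and Il4 had 3 and 145 UMIs, so both tested ligands of the common gamma chain family were higher in CD3/CD28 WT. Of 4 tested partner chains, Il15ra, the IL-15 receptor alpha chain, was at least 2-fold higher (log2 ratio 2.09), whereas Il7r, the IL-7 receptor alpha chain, was at -6.45 and Il4ra at -1.52. Over all genes 19.3% were at least 2-fold higher and 23% lower. Of the 11 kinases and STATs 0 were higher and 2 were lower, Stat2 at -1.92 and Stat5b at -1.26, while Stat5a was at 0.089. Among 15 other negative regulators 0 were higher and 3 were lower, namely Cbl (-1.52), Pias1 (-1.29) and Pias3 (-1.05). Of 15 further genes known to respond to STAT5 or IL-2, 7 were higher and 4 lower. Gzmb (3.82), Lta (3.12) and Cdk6 (2.59) led the higher genes, and Prdm1 (-5.32), Foxp3 (-2.67) and Osm (-1.08) led the lower ones.

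Before stimulation, the small amount of Il2ra sat largely in cells that held Foxp3, the master regulator of regulatory T cells. Of 8031 unstimulated cells, 343 had a Foxp3 UMI, and these 343 cells held 341 of the 558 Il2ra UMIs. Il2ra was at 204 CPM in cells with Foxp3 and 6.12 CPM in those without, 33.4-fold apart (28.1 to 39.7). Il2rb was at 248 against 14.5 CPM, Socs2 at 34.7 against 1.04, Cish at 73.6 against 17.7 and Socs1 at 141 against 69.5. Median depth was 4583 UMIs in the Foxp3 cells and 4627.5 in the rest, so the classes were alike in depth. Socs3 (97.0 against 74.9 CPM) and Il2rg (846 against 808 CPM) lay closer together, and the interval of the Il2rg ratio included no difference. Hence 5 of the 7 genes were at least 2-fold higher in cells with Foxp3, where 11.2% of 11645 genes were. A count of 0 was set to 3, so scarce genes with no UMI in these few cells could count as higher. Il2, with 0 against 17 UMIs, was such a gene. Among genes with at least 200 UMIs over both classes 1.44% were higher, a minimum that Socs2 (58 and 37 UMIs) did not reach.

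Il2ra was not limited to those cells. Of the 267 unstimulated cells with an Il2ra UMI, 139 had no Foxp3 UMI, and these still stood at 169 CPM of Il2rb and 26.5 CPM of Socs2. Ikzf2, which encodes the regulatory T cell factor Helios, was at 101 CPM in those 139 cells, 7.28 CPM in all cells without a Foxp3 UMI and 156 CPM in cells with one. Ctla4 followed the same order at 82.4, 4.77 and 86.8 CPM. At this depth a cell without a Foxp3 UMI is not shown to lack Foxp3 RNA. The same 5 genes and Socs3 were also higher in Foxp3 cells of the stimulated libraries, where such cells numbered 176 in WT and 318 in IFT20-KO. In CD3/CD28 WT, Il2ra was at 436 against 180 CPM, Cish at 248 against 71.5 and Socs2 at 108 against 13.2, while Il2rg was at 592 against 749. There 6 of the 7 genes were at least 2-fold higher, where 15.9% of all genes were, and 1.96% of those with at least 200 UMIs. In CD3/CD28 IFT20-KO, Il2ra was at 316 against 199 CPM (1.59-fold), Cish at 180 against 69.7 and Socs2 at 62.2 against 15.2. In that library 5 of the 7 genes were at least 2-fold higher (Il2rb, Cish, Socs1, Socs2 and Socs3). Of all genes 12.2% were, and of those with at least 200 UMIs 0.906%. Foxp3 cells were deeper in that library, with a median of 8811 UMIs against 4792.5, and less so in CD3/CD28 WT, at 13130.5 against 12148. Without cells that held Foxp3 the median log2 ratio of the 7 genes on stimulation was 1.65 in place of 0.92, with Il2ra at 4.88 in place of 3.62, Socs2 at 3.66 in place of 2.56 and Il2rb at 1.65 in place of 0.92.

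**Figure D2:**
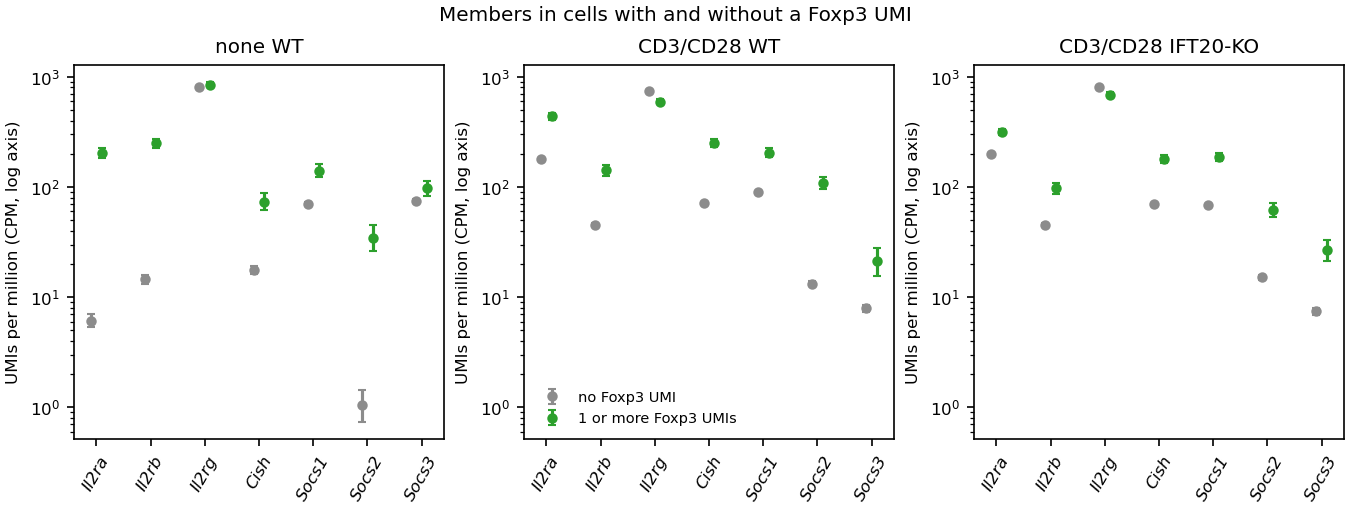
Level of each of the 7 genes in cells with (green) and without (grey) a Foxp3 UMI in the 3 libraries, in CPM on a log axis with 95% exact Poisson intervals. In unstimulated WT the green points of Il2ra (204 CPM), Il2rb (248 CPM) and Socs2 (34.7 CPM) lie far above the grey ones, and those of Il2rg and Socs3 lie close to them.

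Within the stimulated libraries, feedback RNAs and the inducible receptor chains gathered in the same cells. Evenly spread over cells in proportion to depth, the Cish UMIs of CD3/CD28 WT would have reached 52.5% of cells, whereas 32.2% had one. For Socs1 the values were 58.4% and 41.7%, for Socs2 15.8% and 9.03%, and for Il2rb 39.5% and 31.4%. Ift20, by contrast, was observed in 51.5% of cells with 52.9% computed, and Il2ra in 72.0% with 76.1% computed. The levels were then read along Cish in cells of 10000 to 20000 UMIs, where the median depth of the Cish classes differed little (13907 to 14113 UMIs in WT).

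With 0, 1 to 2 and 3 or more Cish UMIs per cell (3373, 956 and 769 cells), Socs1 in CD3/CD28 WT stood at 44.8, 94.9 and 267 CPM. Socs2 stood at 3.13, 17.4 and 63.6 CPM along the same classes, and Socs3 at 2.74, 9.01 and 24.9 CPM. These 3 feedback genes were thus higher in each class of more Cish, by more than the counting intervals. The receptor chains split, with Il2rb at 23.1, 51.1 and 136 CPM and Il2ra at 136, 194 and 330 CPM, while Il2rg was lower in each step, at 719, 652 and 574 CPM. In CD3/CD28 IFT20-KO (2919, 1052 and 479 cells) the order was the same for all 6 genes, with Socs1 at 37.4, 69.5 and 193 CPM, Il2rb at 25.9, 44.1 and 102 CPM and Il2rg at 655, 631 and 575 CPM. Cish aside, 5 of the other 6 genes were at least 2-fold higher in the top class in each library, where 7.5% of genes were in WT and 6.09% in IFT20-KO.

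Dividing cells and Foxp3 cells moved with this gradient. In CD3/CD28 WT cells of that depth with 3 or more UMIs of the division genes Mki67 and Top2a, Cish was at 178 CPM against 61.9 in cells with none, Socs1 at 203 against 73.6 and Socs2 at 61.5 against 10.1, with a median depth of 16324.5 against 13851.5 UMIs. The top Cish class was also compared with the bottom one in cells of that depth without a UMI of Foxp3, Mki67 or Top2a. Such cells are not shown to lack these RNAs, so dividing and Foxp3 cells may remain among them. In WT the log2 ratio was 2.39 for Socs1 (2.29 to 2.49) and 2.58 for Il2rb (2.44 to 2.72). It was 4.03 for Socs2 (3.69 to 4.38) and 1.21 for Il2ra (1.13 to 1.28). The same ratios in IFT20-KO were 2.25, 1.82, 2.66 and 1.11. Across all cells of that depth they were 2.57, 2.56, 4.34 and 1.28 in WT and 2.36, 1.98, 3.42 and 1.15 in IFT20-KO, for the same genes in the same order.

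The genes most alike across cells, by Pearson correlation over cells thinned to 5000 UMIs (7516 WT and 6962 IFT20-KO cells, 6373 genes), were Cish and 5 genes outside the set. Cish was most like Pim1, a STAT-induced kinase (r = 0.41 in WT and 0.37 in IFT20-KO), and Lta, which encodes lymphotoxin alpha (0.40 and 0.37). Socs1 was most like Igfbp4 (0.41 and 0.34) and Cish (0.40 and 0.31). Socs2 had Cish (0.27 and 0.21) and Igfbp4 (0.26 and 0.20) nearest to it, and Il2rb had the same pair, Cish at 0.30 and 0.22. Il2ra was nearest to Lta (0.24 and 0.19) and Cish (0.25 and 0.19). The highest values of Il2rg were low, with Cd5 at 0.16 and 0.17 and Cd53 at 0.15 and 0.14. Negative correlations were not ranked for any gene. Socs3 was detected in under 5% of thinned cells and was given no such gene. All these points are cells of the same library and share its depth and composition, so the values describe these libraries.

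Over all kept cells, those with the most Il2 were not those with the highest CPM of the feedback genes. Cells with the most Il2 were also deeper. At like depth, as given below, the difference was smaller for Cish and Socs1 in both stimulated libraries, but not for Socs2. Il2 UMIs were concentrated, with 95.4% of them in the 10% of CD3/CD28 WT cells that held most, and cells were grouped by 0, 1 to 2, 3 to 9 and 10 or more Il2 UMIs (8272, 804, 487 and 340 cells in WT and 12019, 1331, 396 and 174 in IFT20-KO). Along these classes Il2ra in WT was nearly level at 187, 173, 175 and 194 CPM, and Il2rg was level at 744, 757, 754 and 758 CPM. The feedback genes and Il2rb were lower in cells with Il2. Cish in WT stood at 83.1, 47.4, 38.0 and 49.7 CPM, Socs1 at 98.4, 73.7, 58.1 and 67.2 CPM and Il2rb at 51.0, 38.0, 29.1 and 34.7 CPM. Socs2 was at 17.3 CPM with 0 and 4.06 CPM with 10 or more Il2 UMIs (26 UMIs of Socs2), and Socs3 at 9.57 and 2.19 CPM (14 UMIs).

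**Figure D3:**
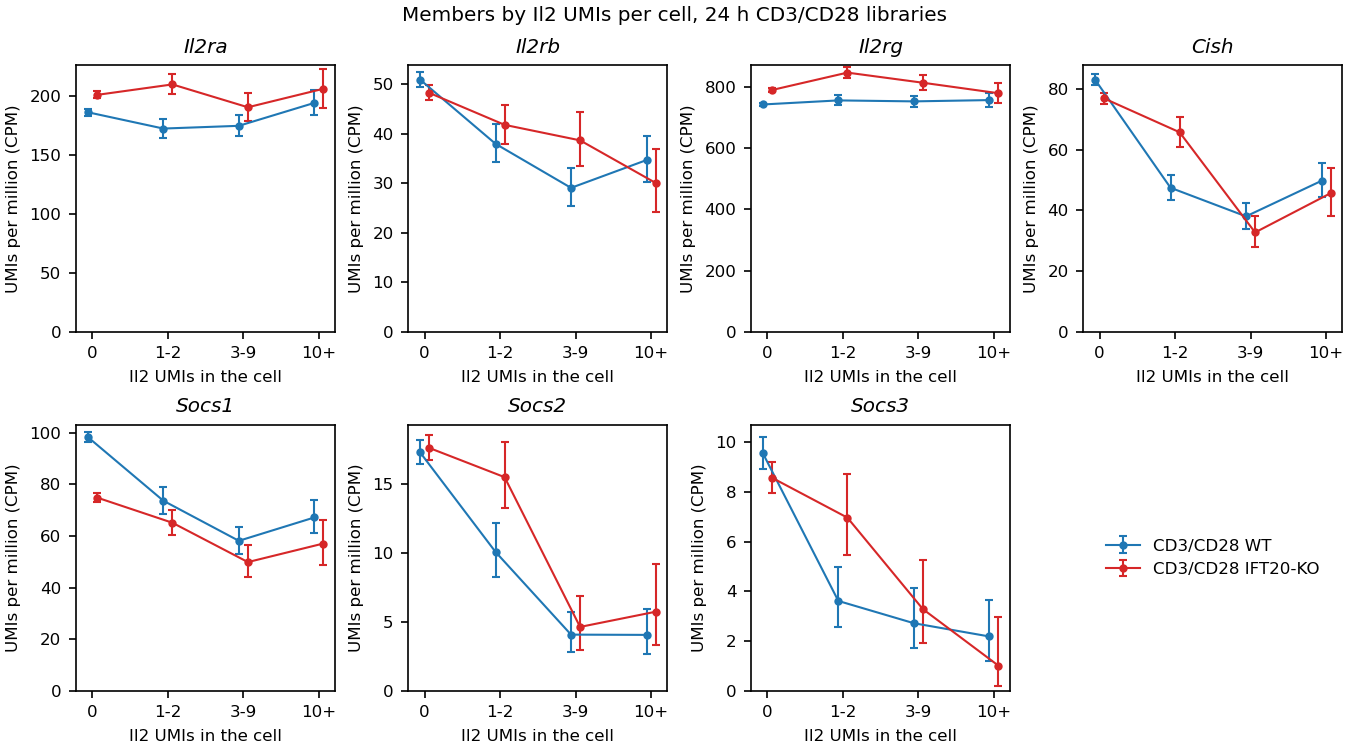
Level of each gene in cells grouped by their Il2 UMIs in CD3/CD28 WT (blue) and CD3/CD28 IFT20-KO (red), in CPM on axes from 0, with 95% exact Poisson intervals. Il2ra and Il2rg stay nearly level from 0 to 10 or more Il2 UMIs, and Socs2 in WT goes from 17.3 to 4.06 CPM.

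Cells with 10 or more Il2 UMIs over cells with 0 gave log2 ratios in WT of -0.74 for Cish (-0.91 to -0.58), -0.55 for Socs1 (-0.69 to -0.41), -0.56 for Il2rb (-0.76 to -0.36), -2.09 for Socs2 (-2.71 to -1.54) and -2.13 for Socs3 (-3.01 to -1.37). The IFT20-KO library gave -0.75 for Cish, -0.39 for Socs1, -0.68 for Il2rb, -1.62 for Socs2 and -3.08 for Socs3, the last on 3 UMIs in the Il2-high class (-5.36 to -1.53). For Il2ra (0.06 in WT, 0.037 in IFT20-KO) and Il2rg (0.028 and -0.019) the intervals included 0 in both libraries. When every cell was given equal weight, Il2ra was at -0.236 in WT and -0.122 in IFT20-KO, and Il2rg at -0.243 and -0.133. In each library 5 of the 7 genes were at least 20% lower in Il2-high cells, where 25.2% of all genes were in WT and 31% in IFT20-KO.

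Depth moved with the Il2 classes, with a median of 11584 UMIs at 0 Il2 UMIs and 18569.5 at 10 or more in WT, and 4144 and 16619 in IFT20-KO. Restricted to cells of 10000 to 20000 UMIs, Socs2 (-2.34, interval -3.40 to -1.45) and Socs3 (-2.65, -4.53 to -1.28) remained lower in Il2-high WT cells, on 10 and 4 UMIs, as did Cish (-0.44, -0.66 to -0.22). Il2rg was higher in Il2-high cells of that depth, at 0.13 in WT (0.066 to 0.19) and 0.23 in IFT20-KO (0.14 to 0.31), and Il2ra was at 0.12 in WT (-0.0072 to 0.24) and 0.26 in IFT20-KO (0.096 to 0.42). Il2rb (-0.091) and Socs1 (-0.17) had intervals that included 0 in WT. Counted by the ratio alone, 3 genes were at least 20% lower in WT, where 22% of genes were. In IFT20-KO cells of that depth 4 genes were (Il2rb, Cish, Socs2 and Socs3), where 21.1% of genes were. Socs2 and Socs3 rested there on 6 and 2 UMIs in the Il2-high class. After thinning to 5000 UMIs, with 5 or more Il2 UMIs as the high class, Cish in IFT20-KO was at -0.026 in place of -0.75 and Socs1 at 0.046 in place of -0.39, while Cish in WT was at -0.57. Thinned in this way, Socs2 in IFT20-KO was at -0.71 in place of -1.62 and Socs3 at -1.32 in place of -3.08. Socs3 in WT went the other way, to -3.29 in place of -2.13. Read from the other side, Il2 in CD3/CD28 WT cells of that depth was at 81.2 CPM with 0 Cish UMIs, 168 with 1 to 2 and 91.7 with 3 or more, while the share of cells with an Il2 UMI was 19.0%, 18.5% and 11.4%. In IFT20-KO, Il2 was at 63.9, 70.4 and 45.5 CPM and in 18.0%, 18.6% and 14.6% of cells. The share was thus lowest in the top Cish class in both libraries, and the level was lowest there in IFT20-KO alone. In cells of that depth without a UMI of Foxp3, Mki67 or Top2a, the log2 ratio of Il2 between the top and bottom Cish classes was 0.66 in WT (0.55 to 0.78) and -0.16 in IFT20-KO (-0.41 to 0.079). The WT top class held 788 Il2 UMIs in 53 of 451 cells (11.8%), where 18.6% of the bottom class had one, so level and share ran in opposite directions. Correlations of each of the 7 genes with Il2 over cells thinned to 5000 UMIs ranged from -0.058 to 0.046 in the 2 libraries.

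**Figure D4:**
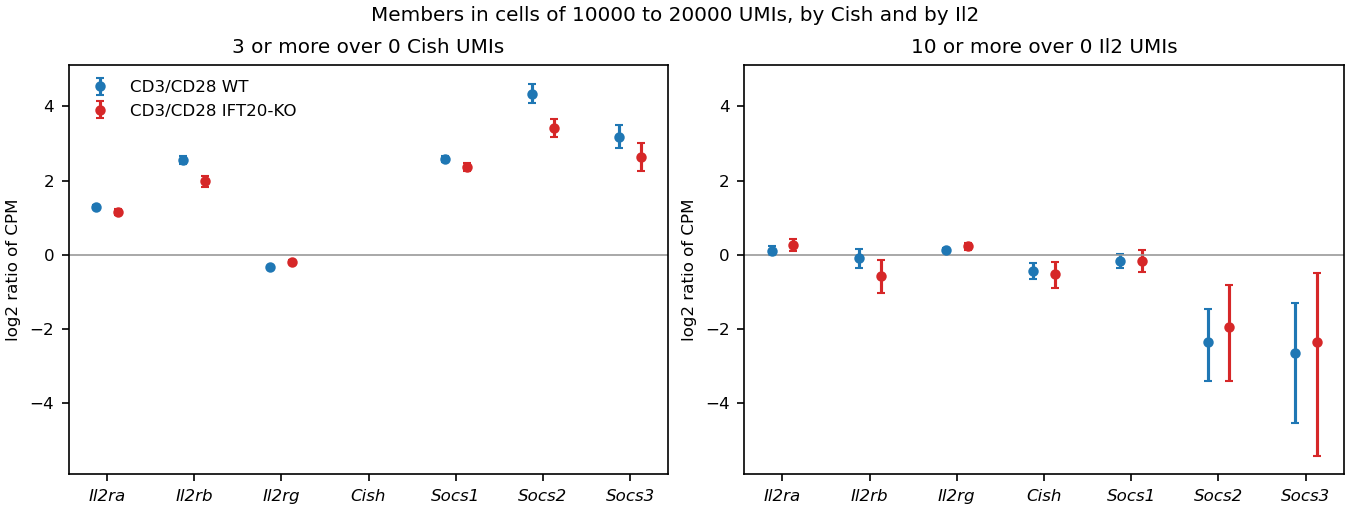
Log2 ratio of each gene in cells of 10000 to 20000 UMIs, for 3 or more over 0 Cish UMIs (left) and for 10 or more over 0 Il2 UMIs (right), in CD3/CD28 WT (blue) and IFT20-KO (red) with 95% exact intervals of the UMI split. Cish is not plotted on the left because it defines the classes. On the left Il2rb, Socs1, Socs2 and Socs3 lie far above 0, with Socs2 in WT at 4.34, and on the right Socs2 and Socs3 lie below 0 with wide intervals.

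The CD3/CD28 IFT20-KO library was compared with the CD3/CD28 WT library, which the comparison with unstimulated WT above also used. Each genotype was 1 library, and only the knockout carried Cre. Loss of IFT20, presence of Cre and differences between libraries therefore cannot be told apart. Genes at least 25% higher or 20% lower in IFT20-KO were counted. Of the 7 genes, Socs1 alone passed over all kept cells, at 72.2 CPM in IFT20-KO against 91.7 CPM in WT, a log2 ratio of -0.34 (-0.39 to -0.30). That made 1 of 7 genes lower, where 6.3% of 13504 genes were, and 0 of 7 higher, where 30.1% were. Il2ra (0.13, 0.099 to 0.15), Il2rg (0.096, 0.082 to 0.11) and Socs2 (0.13, 0.035 to 0.23) sat close to the median of all genes, which was itself at 0.14. Cish (-0.043, -0.087 to 0.0013), Il2rb (-0.023, -0.078 to 0.033) and Socs3 (-0.037, -0.17 to 0.098) had intervals that included 0. These intervals, and that of Il2rg, lay wholly below the all-gene median of 0.14. Il2 was at -0.81.

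Depth differed between these libraries, and at like depth the picture shifted. In cells of 10000 to 20000 UMIs (4450 IFT20-KO and 5098 WT cells), all 7 genes were lower in IFT20-KO, where the median of all genes was 0.043. Socs1 was at 61.8 against 87.2 CPM (log2 ratio -0.50, -0.56 to -0.44) and Cish at 58.1 against 73.3 CPM (-0.34, -0.40 to -0.27), and these 2 were at least 20% lower, where 8.18% of 12767 genes were, while 0 of 7 were at least 25% higher, where 14.8% of genes were. Il2rb was at -0.23, Socs3 at -0.29, Socs2 at -0.19, Il2rg at -0.096 and Il2ra at -0.046. Socs1 was below 0 in all 5 depth ranges, with -0.90 at 3000 to 6000 UMIs (1602 and 339 cells), -0.78 at 6000 to 10000, -0.29 from 20000 upward and -0.17 under 3000 UMIs, where its interval reached 0.013. Cish, Socs3, Il2rb and Il2rg were below 0 in all 5 ranges as well. The share of all genes below 0 was not obtained for any range. Their median was obtained only for 10000 to 20000 UMIs. The Cish intervals included 0 in the 2 ranges under 6000 UMIs. Socs3 lay furthest down at 3000 to 6000 UMIs (-1.16, -1.73 to -0.58), Il2rg under 3000 (-0.65, -0.69 to -0.61) and Il2rb under 3000 (-0.45, -0.62 to -0.28). From 20000 UMIs upward the intervals of these 3 genes included 0. So did the interval of Socs3 under 3000 UMIs (-0.76 to 0.17). At 3000 to 6000 UMIs those of Il2rb (-0.43 to 0.19) and Il2rg (-0.084 to 0.051) did as well. Il2ra had no single direction, from -0.27 under 3000 UMIs to 0.35 at 3000 to 6000. Division markers differed between the libraries too. Mki67 and Top2a summed to 48.2 CPM in WT and 79.1 CPM in IFT20-KO, and of the cells of 10000 to 20000 UMIs, 78.1% in WT and 65.3% in IFT20-KO held no UMI of either. In those cells without either UMI, Cish was at 61.9 CPM in WT and 48.3 in IFT20-KO, and Socs1 at 73.6 and 55.8. A cell without either UMI is not shown to lack Mki67 or Top2a RNA.

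**Figure D5:**
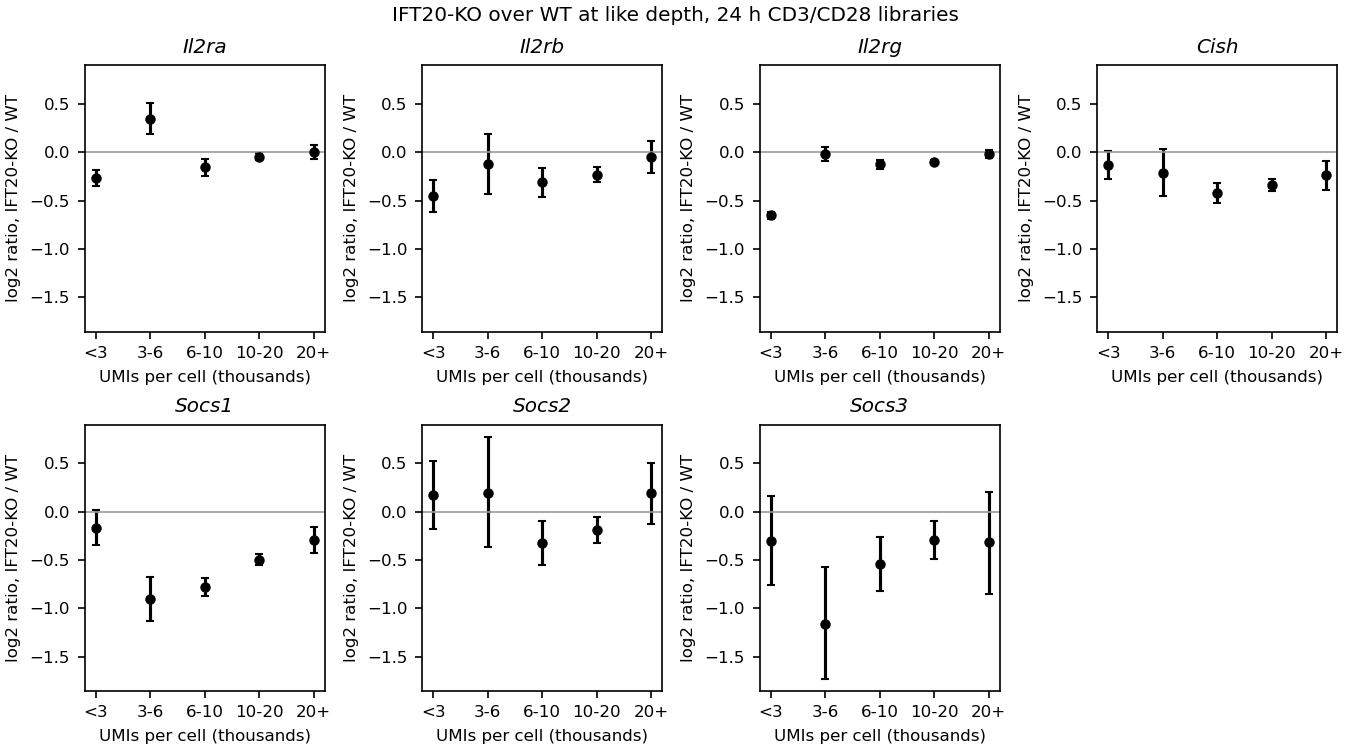
Log2 ratio of IFT20-KO over WT for each gene in 5 ranges of UMIs per cell of the stimulated libraries, with 95% exact intervals of the UMI split and a grey line at 0. Socs1, Cish, Socs3, Il2rb and Il2rg lie below the line in every range, and Il2ra and Socs2 lie on both sides of it.

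The shallow cells also carried a different level of the receptor genes. Under 3000 UMIs, Il2rg was at 2388 CPM in WT and 1521 CPM in IFT20-KO, against 685 and 641 CPM at 10000 to 20000 UMIs, and Il2ra was at 443 and 368 CPM against 176 and 170. Such cells made up 39.6% of IFT20-KO and 21.7% of WT, and cells of 3000 to 6000 UMIs, where Il2ra was higher in IFT20-KO, 11.5% and 3.42%. Over all cells the log2 ratios of Il2ra and Il2rg were above 0, and at 10000 to 20000 UMIs below 0. The part of the depth make-up in that change of sign was not tested. The median mitochondrial share of the cells under 3000 UMIs was 10.3% in WT and 5.74% in IFT20-KO, and its part in these levels was not tested.

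Elsewhere in the pathway, Il4 was at 0.132 CPM in IFT20-KO against 1.24 in WT (log2 ratio -3.24), so both tested ligands, Il2 and Il4, were lower. Of the 11 kinases and STATs, Tyk2 (0.34) was the 1 at least 25% higher, and 2 were at least 20% lower, Stat3 (-0.36) among them. Of 15 other negative regulators 0 were at least 20% lower, where 6.3% of all genes were, and 3 were at least 25% higher, where 30.1% were, namely Socs5 (0.55), Cbl (0.42) and Pias3 (0.37). Il15ra was the 1 partner chain that passed, at -0.51. Among the 15 STAT5 and IL-2 responsive genes 4 were lower and 1 higher, against the same 6.3% and 30.1% of all genes. Gzmb (-0.53), Lta (-0.47), Prdm1 (-0.35, on 5 and 7 UMIs) and Osm (-0.33) were lower, and Foxp3 (0.59, with 318 IFT20-KO and 176 WT cells holding a UMI) was higher. Without cells with a Foxp3 UMI, Socs1 was at -0.37 and was still the 1 gene of the 7 that passed. In cells of 10000 to 20000 UMIs, 0 of the 11 kinases and STATs were at least 25% higher and 2 at least 20% lower. Of the 15 other negative regulators, 1 was higher and 0 were lower. Of 14 tested STAT5 and IL-2 responsive genes, 0 were higher and 3 lower. At that depth 14.8% of all genes were higher and 8.18% lower, and both tested ligands and 1 partner chain were lower.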

How the data were processed

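Gene counts of 3 droplet single-cell libraries were read from the filtered matrices the authors deposited, as whole-number UMI counts per gene and cell, unnormalised. Per the labels and file headers they were made with Cell Ranger 3.1.0 on mm10. The labels name a 5′ kit and the study's methods a 3′ kit, so the chemistry is not settled here. Barcodes with more than 200 genes and under 15% mt- UMIs were kept. Levels are UMIs of a gene per 1000000 UMIs of all kept cells (CPM) with 95% exact Poisson intervals, shares of cells have exact Clopper-Pearson intervals, and ratios have intervals from the exact binomial split of UMIs. With 1 library per group there was no test. Intervals cover counting error only. In the ratios used for counting genes, a count of 0 was set to 3. Where a class held 0 UMIs no ratio was printed.

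Genes with at least 10 UMIs over both sides of a comparison were counted past 2-fold (stimulation, Foxp3 and Cish classes) or 1.25-fold (genotype and Il2 classes, that is 25% higher or 20% lower). Named were all 7 genes, Il2 and Ift20, from each pathway list up to 3 genes with the highest and 3 with the lowest ratio per comparison (Osm in the genotype comparison was added after its value was seen, to complete a count), and for each of the 7 up to 2 genes with the highest correlation in both stimulated libraries, among genes in at least 5% of cells thinned to 5000 UMIs. The 7 genes and the lists were chosen with earlier results of these data known. No doublets were removed, and leaving out the 5% of cells with most UMIs was an alternative. The other alternatives were scaling by median ratio, per-cell fractions, UMIs per cell, depth and quality limits, thinning, and leaving out cells with Foxp3 or division genes. Of 31053 gene IDs, 30934 matched GENCODE M21. Values of some listed genes are not reported here. The ratio scripts were tested on simulated data. Python 3.11.15, numpy 2.4.6, scipy 1.17.1, pandas 2.3.3 and matplotlib 3.10.9 were used.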

Additional observations from a re-analysis of the deposited data

How the results depend on the processing

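The counts, medians and ratios of the 7 genes were recomputed under 11 alternatives for stimulation, 12 for genotype and 8 for the Il2 classes. The correlations had no such series, and the Foxp3 classes had only another UMI minimum for the share of all genes. The pathway lists had other UMI minimums and, for genotype, cells of 10000 to 20000 UMIs. The Cish classes had 1 alternative, without Foxp3 and dividing cells. For genotype, the depth range of 10000 to 20000 UMIs was chosen after seeing the data, as was leaving out Foxp3 cells throughout, and the cause of a shift was not tested unless stated. For stimulation, UMIs per cell without scaling put all 7 genes past 2-fold in place of 4 (each deeper cell gives more UMIs by construction), and the median log2 ratio of 0.92 became 1.09 with median-ratio scaling, 1.22 with per-cell fractions, 2.28 with UMIs per cell, 0.77 in cells of at least 5000 UMIs, 1.13 without the 5% of cells with most UMIs, 1.32 after thinning to 1400 UMIs and 1.65 without Foxp3 cells. Il2rg reversed to 0.050, 0.34, 1.23 and 0.35 with median-ratio scaling, per-cell fractions, UMIs per cell and thinning. For genotype, the count of 1 gene became 7 with UMIs per cell and 2 at 10000 to 20000 UMIs, and the median of -0.023 became -0.19 with median-ratio scaling, -0.65 with UMIs per cell, -0.11 at 5000 UMIs or more and -0.23 at 10000 to 20000. With median-ratio scaling, UMIs per cell, at least 5000 UMIs and 10000 to 20000 UMIs in turn, Il2ra reversed to -0.044, -0.50, -0.043 and -0.046, and Il2rg to -0.075, -0.53, -0.066 and -0.096. Socs2 reversed to -0.039, -0.50 and -0.19 with median-ratio scaling, UMIs per cell and 10000 to 20000 UMIs. For Il2 classes, 10000 to 20000 UMIs gave 3 genes and a median of -0.17 in WT, and in IFT20-KO the median became -0.026 with thinning to 5000 UMIs and -0.33 without Mki67 or Top2a cells, while with thinning Cish, the gene at that median, moved from -0.75 to -0.026 and Socs1 reversed to 0.046. No paired analysis was possible because each group is 1 library and the values come from no test. Socs2 and Socs3 had 26 and 14 UMIs in the Il2-high WT cells and 17 and 3 in the IFT20-KO cells, which sets their wide intervals.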
